A study of Mus musculus with 8 samples.

Results

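Iron enters cells bound to transferrin, is stored in ferritin and leaves through ferroportin, and hepcidin, a peptide hormone, closes that exit by binding ferroportin. Haemoglobin and heme set free from red cells are bound by haptoglobin and hemopexin, and heme oxygenase 1 breaks heme down to iron, carbon monoxide and biliverdin. In the ovary transferrin is found in follicular fluid, and haptoglobin, hemopexin and ceruloplasmin are acute phase proteins made mainly by the liver. The genes described here are Tfrc, Trf, Slc40a1, Hamp, Fth1, Ftl1, Cp, Hp, Hpx and Hmox1, 10 genes in all, and were found by the transcript accession that the scanner files give for each probe. They are 10 of the 20145 genes that could be named on the array and have 14 of its 55681 non-control probes. All 10 were measured well enough to be tested, among 25216 tested features.

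Ovary samples were compared from Wildtype mice (3 samples) and from mice with ovarian neoplasia (5 samples), all 33 weeks old and cycling, with 1 Agilent one-colour array per sample. The neoplasia samples came from mice whose genotype is written Pgrcre/+mPgrLsL/+ in the sample labels and Pgrcre/+PgrBLsL/+ in the design text, so both alleles concern Pgr, the progesterone receptor gene. Cre made from the Pgr locus acts where that locus is active, and an LsL allele is silent until Cre removes its stop cassette. The labels give neither the cycle stage nor the cell content. Nor do they tie arrays to separate animals, and the p-values therefore reflect only how much these samples varied, which may be technical.

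Signals are given on a log2 scale on which 0 is the 75th percentile of processed intensity of the same array. The 75th percentile of intensity was 462 to 515 on wildtype and 309 to 429 on neoplasia arrays, no non-control spot was saturated, and the number of arrays limits the precision. All 8 arrays lay on 1 slide, with neoplasia 1 to 4 in slide row 1 and neoplasia 5 with the wildtype arrays in slide row 2, so a difference within a row rests on neoplasia 5 alone. As a check of the labels, Pgr probe A_51_P213476 read 3.10 to 28.2 units of intensity in wildtype and 3128 to 10660 in neoplasia, whereas probe A_55_P2095663 was above background on 3 of 3 wildtype and 0 of 5 neoplasia arrays. Of 10 ovarian markers, all were above background in wildtype, and 8 were lower in neoplasia at an adjusted p under 0.05 in limma's test. Of these, Fshr, Amh, Cyp19a1 and Lhcgr lay below the background limit on all 5 neoplasia arrays. The loss was not uniform, since Foxl2 and Cyp17a1 differed by 0.43 and 0.30 and did not pass. For Foxl2 every neoplasia array lay above every wildtype array. The summed signal of the 10 ovarian markers, in units of the 75th percentile, was 141 to 213 in wildtype and 43.7 to 68.8 in neoplasia. Foxl2 had the largest part in this sum on each neoplasia array. The median feature was 0.13 higher in neoplasia, and this median lay at -0.47 when arrays were scaled on spike-in controls and at -0.34 in the authors' deposited values, to which no scaling between arrays was applied. The spike-in controls had a mean log2 intensity of 8.05 on neoplasia 1, against 9.13 to 9.85 on every other array. Spike-in scaling therefore moves neoplasia 1 up against the other arrays for every gene.

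Ceruloplasmin and haptoglobin transcripts rose strongly in the neoplasia, the ferritin subunits rose slightly, and the genes of iron entry and exit showed no called difference. Of the 10 genes, 4 were called higher and 0 lower at an adjusted p under 0.05 in limma's test, against 16.8% of all tested features called higher, 13.5% called lower and 30.3% called in either direction. At an unadjusted p under 0.05, likewise, 0 genes were lower. Over single probes, of which 29.1% were called in either direction, the further probes of Tfrc, Trf and Hmox1 were not called. The groups did not overlap for the same 4 genes, Cp, Hp, Fth1 and Ftl1, against 23.0% of all features with every neoplasia array above every wildtype array, 16.1% with every one below, and 39.0% with either. The count of genes called higher was 2 under quantile normalization, under spike-in scaling and in the authors' deposited values, which were the calls of Cp and Hp. It was also 2 without wildtype 1, wildtype 2 or wildtype 3.

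**Figure D1:**
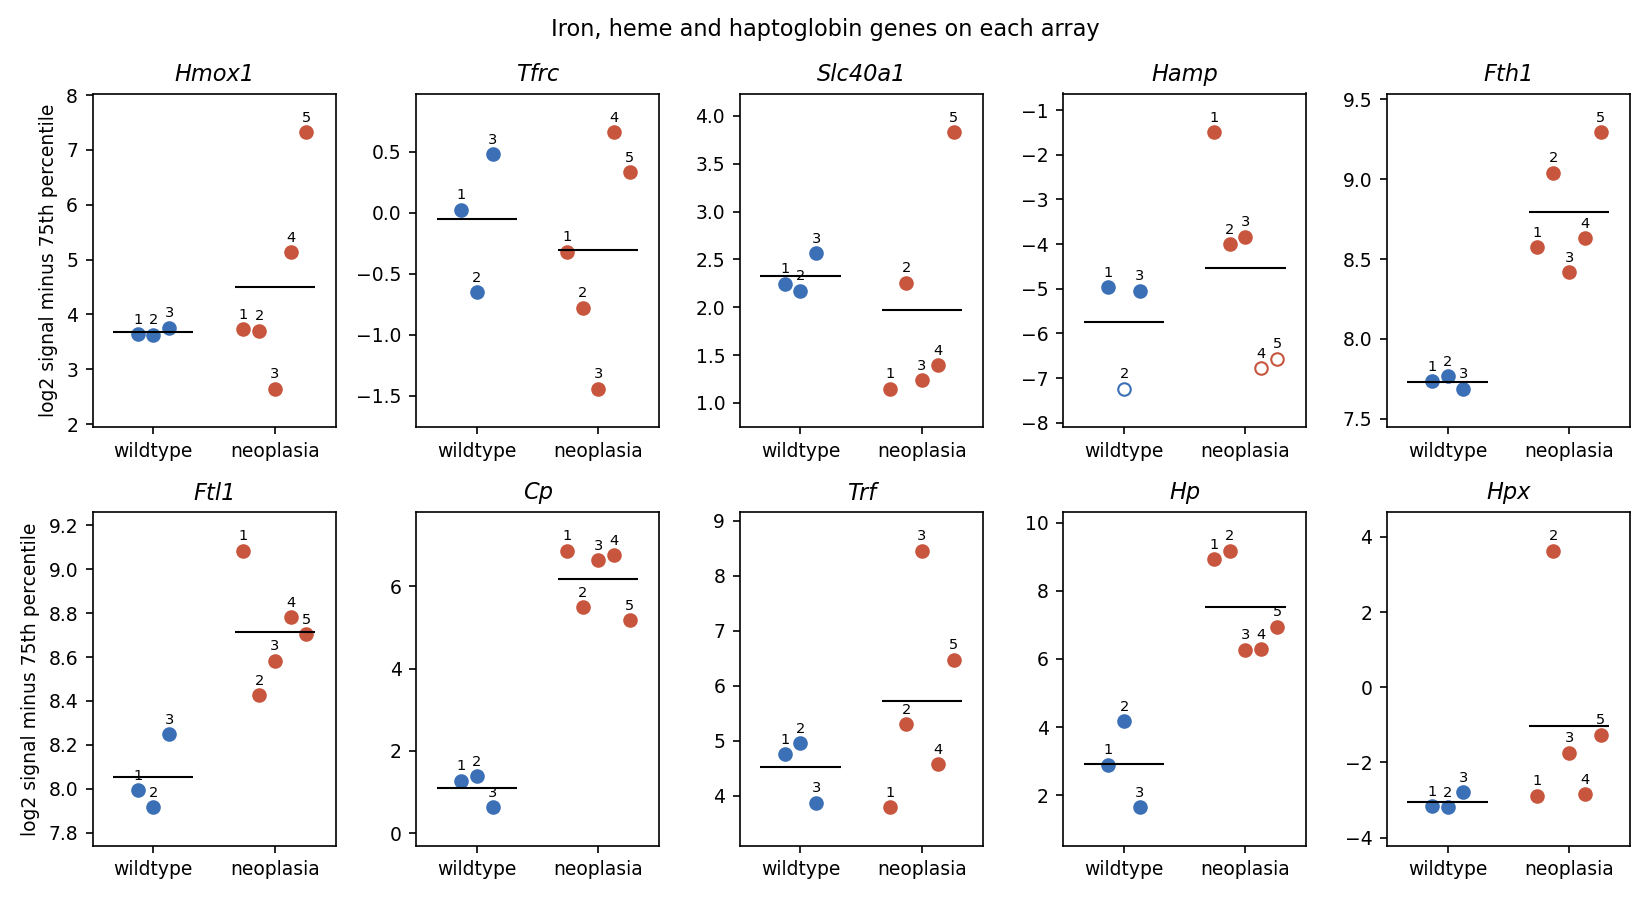
Signal of each gene on each array (vertical axis, log2 signal minus the array's 75th percentile, with its own scale in each panel) in wildtype (blue) and neoplasia (red), with the replicate number above each point, open points for arrays not well above background and black lines for the group means. Cp, Hp, Fth1 and Ftl1 have no overlap between the groups. The highest neoplasia array is 5 for Hmox1 and Slc40a1, 3 for Trf, 2 for Hpx and 1 for Hamp.

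Ceruloplasmin, a copper-carrying ferroxidase that oxidises iron so that transferrin can bind it, had the largest change. Cp read 1.28, 1.38 and 0.63 in wildtype 1 to 3 and 6.87, 5.50, 6.64, 6.75 and 5.18 in neoplasia 1 to 5. Every neoplasia array was high, and the lowest of them stood 3.79 above the highest wildtype array. The difference was 5.09 ± 0.45 (SE), or 34.0-fold (limma adjusted p = 0.000224). In such whole-tissue samples a larger or smaller share of a cell type cannot be told apart from more or less RNA per cell, here or for any gene below. The call held under each alternative that was run, with differences of 4.08 to 5.34 (adjusted p = 1.5e-05 to 0.0107), the lowest from slide row 2, which sets neoplasia 5 against the wildtype arrays.

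Haptoglobin binds free haemoglobin and carries it to macrophages for uptake. Hp read 2.89, 4.17 and 1.65 in wildtype 1 to 3 and 8.92, 9.18, 6.27, 6.29 and 6.95 in neoplasia 1 to 5. Neoplasia 1 and 2 were the highest, and the lowest neoplasia array lay 2.10 above the highest wildtype array. The wildtype mean was 2.91 ± 1.26 (SD, n = 3) and the neoplasia mean 7.52 ± 1.43 (SD, n = 5), a difference of 4.62 ± 0.86 (SE), or 24.5-fold (limma adjusted p = 0.00727). In the fit with a slide row term the difference was 4.04 and was not called (adjusted p = 0.151), nor was it within slide row 2 (adjusted p = 0.0677), while the adjusted p over all alternatives lay between 0.00232 and 0.151.

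Ferritin stores iron in a shell of heavy and light subunits, of which the heavy subunit oxidises iron and the light subunit helps to form the mineral core. Fth1, the heavy subunit, read 7.74, 7.77 and 7.69 in wildtype 1 to 3 and 8.57, 9.04, 8.42, 8.63 and 9.29 in neoplasia 1 to 5. The wildtype arrays lay within a range of 0.08, and neoplasia 5 and 2 were the highest. The difference was 1.06 ± 0.24 (SE), or 2.09-fold (limma adjusted p = 0.0144). Ftl1, the light subunit, read 7.99, 7.92 and 8.25 in wildtype 1 to 3 and 9.09, 8.43, 8.58, 8.78 and 8.70 in neoplasia 1 to 5. Its groups were separated by only 0.18, between wildtype 3 and neoplasia 2. The difference was 0.66 ± 0.21 (SE), or 1.58-fold (limma adjusted p = 0.0414).

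The ferritin rises depended on the scaling between arrays. For Fth1 the difference was 0.22 with quantile normalization, 0.46 with spike-in scaling and 0.59 in the authors' deposited values, and none of these was called (adjusted p = 0.637, 0.612 and 0.146, within a range of 0.00203 to 0.637 over all alternatives). For Ftl1 it was 0.06 with spike-in scaling and turned to -0.24 with quantile normalization (adjusted p = 0.965 and 0.254, within a range of 0.00721 to 0.965). Without wildtype 1, 2 or 3 the Fth1 call was lost as well (largest adjusted p = 0.0634), as was that of Ftl1, which was also lost without neoplasia 1, 3 or 4 (largest adjusted p = 0.149). Within slide row 2 the difference of Fth1 was 1.57 (adjusted p = 0.0143) and that of Ftl1 was 0.65 (adjusted p = 0.115).

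Promoter sequence was taken from RefSeq on GRCm38.p6, where 6 of the 10 genes have windows from 250 bases before to 50 after a transcript start, 9 windows in all, and it is shown for the called genes among them and for Hpx, which is known from the liver. The C/EBP motif TTNNGNAA is named for a family of factors known to act on liver and acute phase genes. It occurred on either strand in 6 of the 9 windows, those of the 4 genes Cp, Fth1, Ftl1 and Hpx. Of all 32851 windows of that length 40.7% held it. The antioxidant response motif TGACNNNGC was found in 1 of the 9 windows, that of Hpx, and in 12.4% of all windows. The hypoxia motif ACGTG was in 2 of the 9, both of Tfrc, and in 19.6% of all. Those 2 windows overlap and hold the same match. The STAT motif TTCNNNGAA was in 1 of the 9, that of Hamp, and in 8.3% of all. The progesterone response motif ACANNNTGT was in none of these windows and in 6.85% of all. Such matches describe letters only and say nothing of binding. In the following stretches, on the strand of the gene, capitals mark the match to the C/EBP motif in the first 3 and to the antioxidant response motif in the last. For Ftl1 and Hpx the match is on the opposite strand, so the capitals show the reverse complement of the motif. They lie at chr3:19957164-19957201 (plus strand), chr19:9982573-9982610 (plus strand), chr7:45460025-45460062 (minus strand) and chr7:105600188-105600226 (minus strand).
Cp: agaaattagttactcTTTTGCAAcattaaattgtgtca
Fth1: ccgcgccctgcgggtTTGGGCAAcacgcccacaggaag
Ftl1: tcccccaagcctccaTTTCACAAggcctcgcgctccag
Hpx: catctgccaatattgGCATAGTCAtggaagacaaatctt

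For the genes of iron entry and exit no difference was called. Tfrc, the receptor that takes up iron-loaded transferrin, read 0.02, -0.65 and 0.48 in wildtype 1 to 3 and -0.32, -0.78, -1.44, 0.66 and 0.33 in neoplasia 1 to 5. The groups overlapped, and the difference was -0.26 with a 95% interval of -1.40 to 0.88 (limma adjusted p = 0.708). Probe A_65_P06446 ranked the neoplasias in the same order as the brightest probe, A_52_P228236, from neoplasia 4 down to neoplasia 3, and differed by 0.01 between groups. The dim probe A_51_P167876, above background on 5 of 8 arrays, differed by 0.08. Slc40a1, which encodes ferroportin, the iron exporter, read 2.25, 2.17 and 2.57 in wildtype 1 to 3 and 1.15, 2.26, 1.24, 1.39 and 3.83 in neoplasia 1 to 5. Neoplasia 1, 3 and 4 were below all wildtype arrays and neoplasia 5 was above them. The difference was -0.35, with a 95% interval of -1.72 to 1.01 (limma adjusted p = 0.669), and 1.50 within slide row 2, where it was called (adjusted p = 0.0264, within a range of 0.0264 to 0.868 over all alternatives).

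Transferrin, the iron carrier of plasma, varied widely between neoplasias. Trf read 4.75, 4.95 and 3.87 in wildtype 1 to 3 and 3.79, 5.30, 8.46, 4.57 and 6.47 in neoplasia 1 to 5. Neoplasia 3 was 15.3-fold above the wildtype mean, whereas neoplasia 1 was below every wildtype array. The difference of the means was 1.19 ± 0.96 (SE) and did not pass (limma adjusted p = 0.360), and without neoplasia 3 it was 0.51. The other Trf probe, A_55_P2037585, put the neoplasias in the same order and differed by 1.34.

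Hepcidin was near the limit of detection. Hamp was above background on 2 of 3 wildtype and 3 of 5 neoplasia arrays, so its difference of 1.22 ± 1.21 (SE) includes signals below background and was not called (limma adjusted p = 0.461). It read -4.97, -7.24 and -5.05 in wildtype 1 to 3 and -1.49, -4.01, -3.84, -6.78 and -6.57 in neoplasia 1 to 5. Neoplasia 1 stood 5.09-fold above the next neoplasia, at an intensity of 110, against 3.41 to 16.3 on the wildtype arrays.

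**Figure D2:**
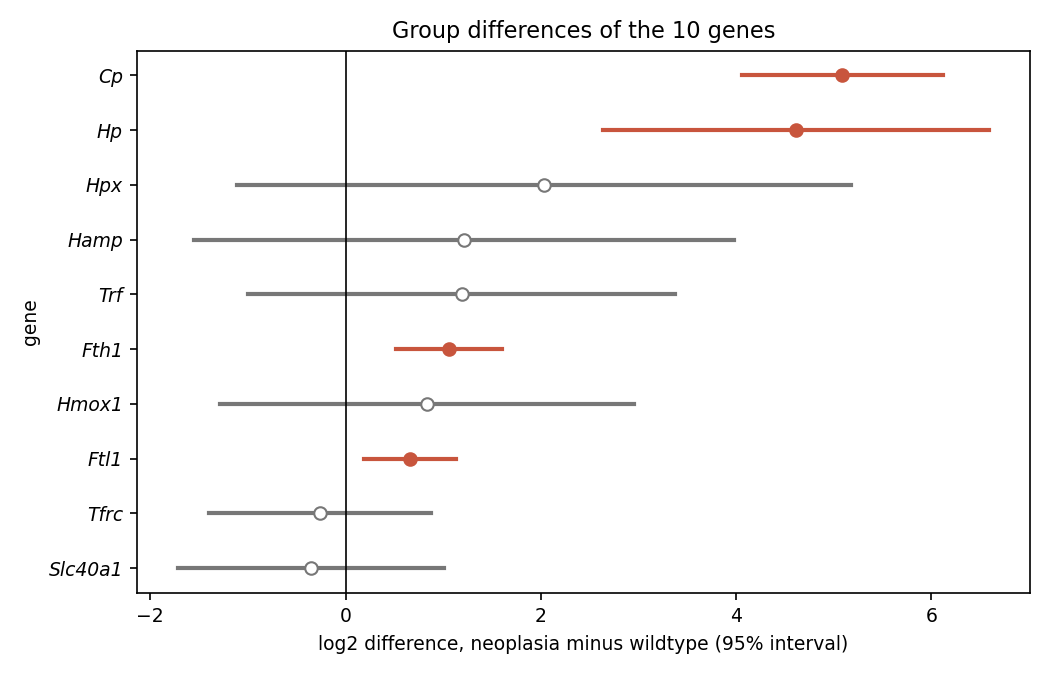
Difference between the group means of each gene (horizontal axis, neoplasia minus wildtype on the log2 scale) with its 95% interval from limma's fit. Filled red points passed the adjusted threshold, which are Cp, Hp, Fth1 and Ftl1, and the intervals of the other 6 genes (open grey points) include 0.

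The heme-handling genes Hmox1 and Hpx were highest in different neoplasias. Hmox1, the inducible heme oxygenase, read 3.64, 3.63 and 3.76 in wildtype 1 to 3 and 3.73, 3.70, 2.65, 5.13 and 7.33 in neoplasia 1 to 5. Neoplasia 1 and 2 were at the wildtype level and neoplasia 3 was below it. Neoplasia 4 was above every wildtype array, and neoplasia 5 was 12.6-fold above the wildtype mean. The difference was 0.83, with a 95% interval of -1.29 to 2.95 (limma adjusted p = 0.511), and without neoplasia 5 it was 0.13. When slide row was a block, which rests on neoplasia 5, the difference was 3.65 and was called (adjusted p = 0.0422, within a range of 0.00491 to 0.898 over all alternatives). The other Hmox1 probe, A_55_P2029687, ranked the neoplasias in the same order and differed by 0.71.

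Hemopexin binds free heme and delivers it to the liver. Hpx read -3.16, -3.19 and -2.80 in wildtype 1 to 3 and -2.88, 3.64, -1.75, -2.84 and -1.27 in neoplasia 1 to 5. Neoplasia 2 reached an intensity of 5337, against 42.0 to 149 on the other 4 neoplasia arrays, and was 103-fold above the wildtype mean. The difference of the means was 2.03 ± 1.37 (SE) and was not called (limma adjusted p = 0.280), and without neoplasia 2 it was 0.87 (adjusted p = 0.166). Within slide row 2 it was 1.78 and was called (adjusted p = 0.0200, within a range of 0.0200 to 0.680 over all alternatives).

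The neoplasias were unlike one another in these genes. All 10 genes had a larger SD among neoplasias than among wildtype arrays, as had 84.8% of all tested features. The SD among neoplasias was 2.70 for Hpx, 2.19 for Hamp, 1.82 for Trf, 1.81 for Hmox1 and 1.43 for Hp, against a median of 0.47 over all features, and 0.65%, 1.63%, 3.28%, 3.37% and 6.89% of features had an SD at least as large as these, in that order. Fth1 and Ftl1 varied less than the median, with SDs of 0.36 and 0.25. Every neoplasia array was above the wildtype mean for Cp, Hp, Fth1, Ftl1 and Hpx, and for the other genes neoplasias lay on both sides of it. Hpx on neoplasia 1 and 4 was only 0.17 and 0.21 above that mean, within the wildtype range. The share of all features with every neoplasia array above the wildtype mean was not counted. Neoplasia 1 was highest for Cp, Ftl1 and Hamp, neoplasia 2 for Hp and Hpx, neoplasia 3 for Trf, neoplasia 4 for Tfrc, and neoplasia 5 for Hmox1, Slc40a1 and Fth1.

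**Figure D3:**
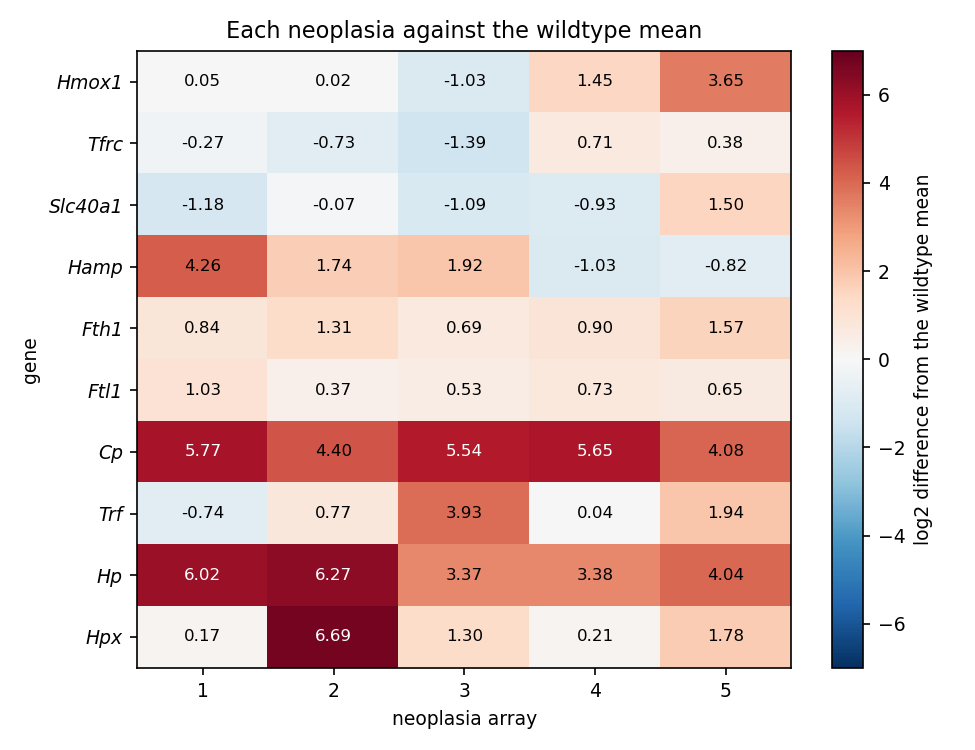
Log2 difference of each neoplasia array (columns, 1 to 5) from the wildtype mean for each gene (rows), printed in the cells and coloured from blue (lower) to red (higher). Cp and Hp are high in all 5 columns, Hpx is highest in neoplasia 2 (6.69), Trf in neoplasia 3 (3.93) and Hmox1 in neoplasia 5 (3.65).

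Differences between functionally paired genes within an array do not depend on a scaling factor between arrays, and 4 such pairs were compared. An exact two-sided permutation test over the 56 splits of the arrays has a smallest p of 0.0179, which after adjustment over the 4 pairs is 0.0714 for 1 pair alone, so the design could pass no single pair and the adjusted values say little. The change of Cp exceeded that of Trf by 3.90 (exact permutation p = 0.0357, adjusted p = 0.143), and the groups did not overlap in this difference. For Hp against Hpx the changes differed by 2.59 (adjusted p = 0.250) and for Fth1 against Ftl1 by 0.40 (adjusted p = 0.286), both with overlapping groups in the exact permutation test. For Tfrc against Slc40a1 they differed by 0.09 (exact permutation adjusted p = 0.911).

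Markers of other cell types also differed between the groups, and their part in the results was not tested. The summed signal of 6 erythrocyte markers, in units of the array's 75th percentile, was 9.35 to 27.1 in wildtype and 377 to 1717 in neoplasia, and all 5 tested members were called higher. It was highest on neoplasia 5, where Hmox1, Slc40a1 and Fth1 were also highest. The next highest sum was 1273, on neoplasia 4. There Hmox1 was also next highest, at 5.13, but Slc40a1, at 1.39, lay below every wildtype array. The sum of 11 macrophage markers was 38.2 to 45.7 in wildtype and 107 to 215 in neoplasia, highest on neoplasia 2, and 8 of 10 tested members were called higher, while Clec4f was above background on no array. The 8 neutrophil markers summed to 0.769 to 1.79 and 3.54 to 29.7, with 4 of 6 tested members called higher, and Ngp, Retnlg and Cxcr2 were not above background on any wildtype array. The 5 endothelial markers summed to 6.17 to 7.71 and 10.1 to 22.2, with 1 called higher (20%). Over all features 16.8% were called higher, so the endothelial count was near the background.

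Liver and epithelial markers were measured because Hp, Hpx, Trf, Cp and Hamp are known from the liver. The 9 liver markers summed to 2.67 to 10.5 in wildtype, and to 59.0, 267, 11.3, 1.98 and 16.6 in neoplasia 1 to 5. Of 7 tested members 1 was called higher and 1 lower, 14.3% each way. These shares were near the 16.8% and 13.5% of all features. Alb, which encodes albumin, was not above background on any wildtype array and read 6.24 on neoplasia 2, the array with the highest Hp and Hpx. On neoplasia 1, where Hp read 8.92, the liver markers went different ways: Alb was not above background at -6.70, whereas Apoa1, an apolipoprotein, read 5.87, its highest on any array, against -2.48 to -2.40 in wildtype, and made up most of the sum there. The 7 epithelial markers summed to 40.8, 70.5 and 12.5 in wildtype 1 to 3. In neoplasia they summed to 179 to 767, highest on neoplasia 1, with 2 of 7 members called higher and 2 lower (28.6% each way). The keratins Krt8 and Krt18 were the higher ones, and Epcam and Cdh1 the lower ones. Krt18, Krt8 and Krt19 made up most of the sum on neoplasia 1, at 8.98, 7.14 and 6.90, so the sum does not stand for every member.

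**Figure D4:**
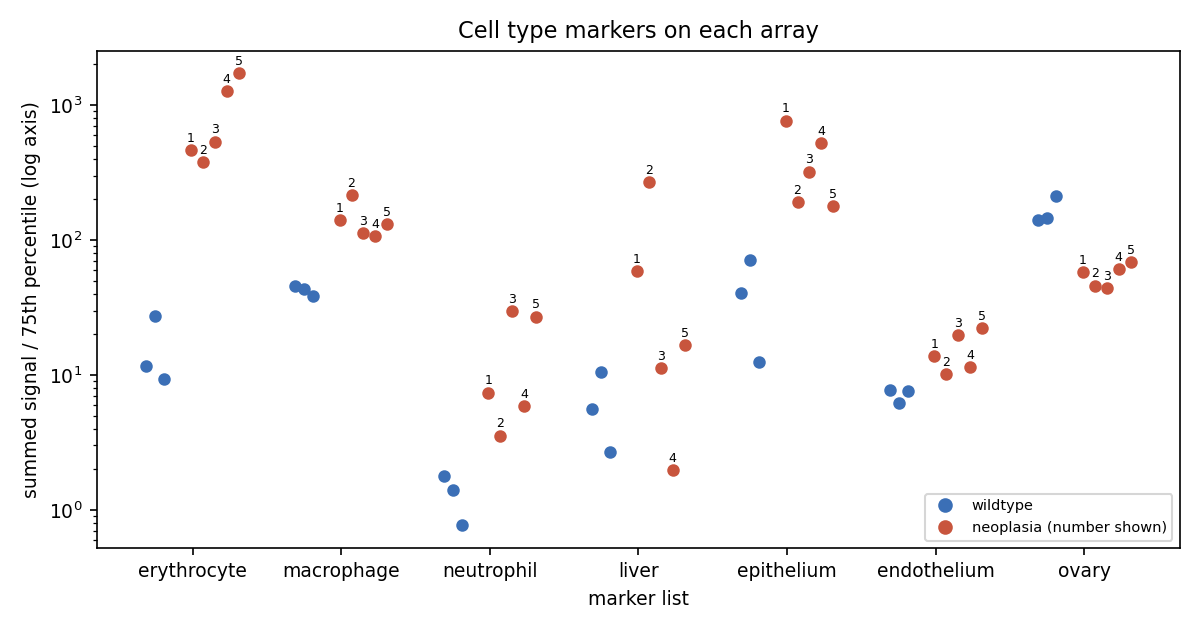
Summed signal of each marker list on each array (vertical log axis, in units of the array's 75th percentile) for wildtype (blue) and neoplasia (red, numbered). Erythrocyte markers are above the wildtype range in all 5 neoplasias, and liver markers span 1.98 to 267 among them.

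Beyond these 10 genes, 69 further genes of iron and heme handling were placed in 5 lists, of which 65 were tested. In these lists 19 genes were called higher (29.2%) and 10 lower (15.4%), against 16.8% and 13.5% of all features, so the share of lower calls was near the background. The median difference was 0.40, against 0.13 over all features. The counts were 7 higher and 11 lower with spike-in scaling, 9 and 16 in the authors' deposited values, 4 and 1 when slide row was a block, and 11 and 2, 12 and 2, and 13 and 4 without wildtype 1, 2 and 3. Without neoplasia 1 there were 6 lower and without neoplasia 4 there were 4.

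Genes of iron uptake and membrane transport had the largest changes. Of 16 tested members 7 were higher and 3 lower (43.8% and 18.8%, median 1.18), against 16.8% and 13.5% of all features. The share of lower calls was thus near the background. The counts were 6 and 3 with spike-in scaling and in the authors' deposited values, and 5 and 1 with the replicate number as a block. Both counts were also smaller with slide row as a block, which rests on neoplasia 5. Lcn2, lipocalin 2, which binds the siderophores that bacteria use to capture iron, rose by 8.99 ± 1.13 (SE; limma adjusted p = 0.0013). It read 1.66, 3.03 and -2.51 in wildtype 1 to 3 and 10.54, 9.06, 10.30, 10.08 and 8.59 in neoplasia 1 to 5. Wildtype 3 was the lowest array, and the groups were far apart, although the call was lost when slide row was a block (7.86, adjusted p = 0.0521, within a range of 1.25e-05 to 0.0911 over all alternatives). Meltf, melanotransferrin, an iron-binding protein of the cell surface, rose by 6.35 ± 0.80 (SE) and kept its call in 21 of 21 alternatives. Ltf, lactotransferrin, an iron-binding protein of secretions and neutrophil granules, fell by 4.87 ± 1.33 on the log2 scale (SE), with wildtype 3 at -0.31 just above neoplasia 3 at -0.34, and was no longer called when wildtype 1, wildtype 2 or neoplasia 1 was left out (largest adjusted p = 0.108). Named after their values were seen, the metal transporters Slc39a14, Slc39a8 and Slc11a1 rose by 3.52, 3.14 and 1.60, and the metalloreductases Steap1 and Steap2 by 4.36 and 2.95, while Slc22a17, known as a lipocalin 2 receptor, fell by 2.80 and the ferroxidase Heph by 1.85, all on the log2 scale. Of these, Slc11a1 lost its call without any 1 wildtype array, and Heph without any 1 wildtype array or any 1 neoplasia array but neoplasia 3.

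In the list of heme scavenging, breakdown and export 7 of 11 tested members were higher and 1 lower (median 0.90). These are 63.6% and 9.09%, against 16.8% and 13.5% of all features. The number of higher calls was 0 with spike-in scaling, 1 in the authors' deposited values, 0 when slide row was a block, and 3, 4 and 4 without wildtype 1, 2 and 3, with a positive median in each of these. Abcg2, which exports heme and other compounds, rose by 1.70 ± 0.33 (SE) and Hebp1, a heme-binding protein, by 1.26 ± 0.22 (SE). Flvcr2, of the family of the heme exporter Flvcr1, fell by 4.30 ± 0.67 on the log2 scale (SE), a size set in part by dim signals, since it was above background on 2 of 5 neoplasia arrays. Its call was lost in 1 of 20 alternatives, with slide row as a block (adjusted p = 0.108, with 5.6e-06 to 0.108 over all alternatives). Of the rest, named after their values were seen, the constitutive heme oxygenase Hmox2 rose by 0.97, the biliverdin reductases Blvra and Blvrb by 0.65 and 1.26, and the heme transporters Slc48a1 and Flvcr1 by 1.00 and 0.90. Blvra, Slc48a1 and Flvcr1 lost their calls without any 1 wildtype array, Blvrb without wildtype 1 and Flvcr1 also without neoplasia 3. Cd163, the macrophage receptor for haptoglobin bound to haemoglobin, was not above background on enough arrays to be tested.

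Of 9 tested heme synthesis genes 2 were called higher and 3 lower (median 0.06, or -0.54 with spike-in scaling), against 16.8% and 13.5% of all features. These calls rested on single arrays, with 0 in either direction without wildtype 1 or wildtype 2, 1 in each without wildtype 3, and 0 higher and 1 lower without neoplasia 3 or neoplasia 4. The number higher was also 0 with quantile normalization, with spike-in scaling and in the authors' deposited values, where 3, 1 and 4 were lower, and 1 was higher without neoplasia 1 or neoplasia 2. Alas1, the rate-limiting enzyme of heme synthesis outside red cells, rose by 1.75 ± 0.55 (SE). Only the omission of wildtype 3 or neoplasia 5 left it called (largest adjusted p = 0.162 among the others), and it was not called with quantile normalization (0.97), spike-in scaling (1.14) or in the authors' deposited values (1.27). Over all alternatives Alas1 kept its call in 6 of 21, with differences of 0.42 to 2.20. Alad and Ppox, further enzymes of the pathway, fell by 1.32 and 1.14 on the log2 scale, and neither was called once wildtype 1, wildtype 2, neoplasia 3 or neoplasia 4 was omitted (largest adjusted p = 0.138), nor was Ppox once wildtype 3 was.

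In the list of iron sensing and hepcidin control 3 of 17 tested members were higher and 3 lower, 17.6% each way, which is near the 16.8% and 13.5% of all features (median 0.39, or -0.21 with spike-in scaling). The number lower was 0 without any 1 wildtype array or without neoplasia 4 and 1 without neoplasia 1, and it was 5 with spike-in scaling and 7 in the authors' deposited values. With slide row as a block 0 were called either way. Erfe, erythroferrone, a hormone of red cell precursors that represses hepcidin, was above background on 0 of 3 wildtype arrays but on 5 of 5 in neoplasia, where it was at least 10.3-fold higher (limma adjusted p = 0.0058). Its call was lost in 1 of 20 alternatives, with slide row as a block (adjusted p = 0.121, with 0.0007 to 0.121 over all alternatives). That bound sets the neoplasia mean against, on each wildtype array, the higher of the probe's own signal and the lowest signal well above background. Erfe was highest on neoplasia 4, at 0.23. Tmprss6, a protease that lowers hepcidin, fell by 2.76 and Aco1, an iron regulatory protein, by 1.56 on the log2 scale, and neither was called without any 1 wildtype array or without neoplasia 4, nor Tmprss6 without neoplasia 1, 3 or 5 (largest adjusted p = 0.131). Of ferritin turnover and mitochondrial iron, 0 of 12 tested members were called in either direction by limma, while 1 was higher and 1 lower at an unadjusted p under 0.05. Their median was 0.19, and -0.41 with spike-in scaling, where 1 was called lower.

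**Figure D5:**
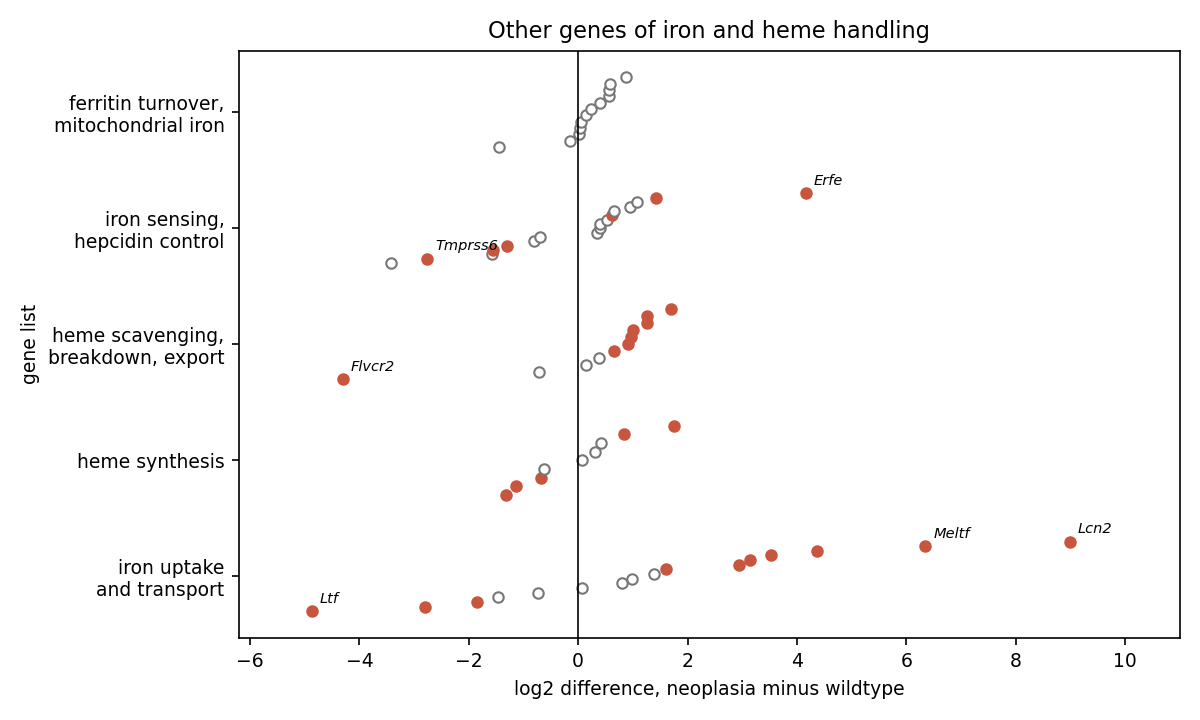
Difference between group means (horizontal axis, neoplasia minus wildtype, log2) for each tested gene (points) of the 5 lists (rows), with called genes filled red and others open grey. Labels mark genes past 2.5 in either direction among the 3 largest called changes of each list. Lcn2 (8.99) and Meltf (6.35) lie farthest to the right and Ltf (-4.87) farthest to the left.

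The genes with the most similar profile over the 8 arrays were found by the mean absolute difference of log2 signals centred on their own means, among 15458 genes, as a description. For Cp these were Adora2b and Fam89a (0.30 for both), and for Hp they were Mpzl2 (0.64) and Hnf4a (0.69), a liver and epithelial transcription factor. Those of Fth1 were Ubtd1 and Tgfbr2 (0.12 for both), and those of Ftl1 were Rpsa and Pafah1b1 (0.05 for both). Hmox1 was nearest to Dpep2 (0.30) and Ier3 (0.34), Slc40a1 to genes that include Impa2 (0.23), and Tfrc to Cbln2 (0.24) and Epop (0.27). Less close matches were those of Trf with Gstm6 (0.48), Hpx with Pigz (0.48) and Spib (0.63), and Hamp with Egfem1 (0.77) and Hsd11b2 (0.80). Among the 10 genes themselves, Fth1 and Ftl1 were the closest pair, at 0.34. Yet Ftl1 ranked only 833 among the genes nearest to Fth1, and Fth1 4326 among those nearest to Ftl1. By rank Cp and Hp were closer, with Cp at 83 for Hp and Hp at 279 for Cp.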

How the data were processed

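Per the file headers, the deposited scanner files were made with Agilent Feature Extraction 11.0.1.1 on a grid annotated on mm9, and they hold spot intensity that was background-subtracted and spatially detrended but not normalized between arrays. The authors' deposited log2 values equal log2 of the mean processed intensity per feature name within 0.001 for 37932 of 37932 rows, neither centred nor turned. The submitters' processing notes name Partek, with no role.

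Spots flagged as outliers and control spots were removed, log2 intensity minus the array's 75th percentile over non-control spots was taken, and spots of a probe were averaged. Accessions without versions were matched to RefSeq (GRCm38.p6), which named 26582 of 55681 probes (47.7%). A feature was tested if 3 or more arrays read it well above background, with the brightest probe standing for a gene. The test was that of limma 3.58.1 under R 4.3.3 (eBayes after lmFit, two-sided, Benjamini-Hochberg over all features, threshold 0.05), a script tested on simulated data. Probe values come from the same fit over probes.

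The members and lists were chosen with earlier results of these data known. Named genes are all members and their probes, Pgr, up to 3 changed genes of each list by size, and the 2 nearest profiles of each member, of which some are not reported here. Alternatives were normexp (offset 50, on median intensity, as the files hold no mean foreground), quantile normalization, spike-in scaling, the deposited values, other filters on dim probes, the mean over probes, trend and robust moderation, array weights, slide row or the replicate number as a block, the arrays of slide row 2, a threshold of 0.01, and leaving out each array. Probe positions in transcripts were not used here.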

Additional observations from a re-analysis of the deposited data

Results flagged for a closer look

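In 26 sets of values from the 5 neoplasia arrays, 1 array stood apart by Dixon's criterion (0.71) in 2, where chance gives about 1 in 20. Hpx was one, with neoplasia 2 at 3.64 and the others at -2.88 to -1.27 (gap over range 0.752). Abcg2 was the other, with neoplasia 5 at 3.36 and the others at 4.48 to 4.84 (gap over range 0.759).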

How the results depend on the processing

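Results are limited by 3 wildtype arrays, by the scaling between arrays and by slide row. The count of changed features, 7652, was 4897 with spike-in scaling, 13252 with array weights, 4686 with the replicate block, 1541 with slide row as a block and 2561 at a threshold of 0.01. It was 2830 to 9982 when 1 array was left out, lowest without wildtype 1, with 3209 without wildtype 2 and 4036 without wildtype 3. Of the 10 genes, 4 were higher in the main values and 2 at 0.01, with quantile normalization, with spike-in scaling and in the authors' values, and 2 to 4 with 1 array left out. None was lower in any of the 21 alternatives.

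Of the other iron and heme genes, 19 rose and 10 fell. Rises numbered 7 with spike-in scaling, 9 in the authors' values, 30 with array weights, 10 with the replicate block, 4 with slide row as a block, 11 at 0.01 and 11 to 22 with 1 array left out. Falls numbered 16 in the authors' values, 6 with no filter on dim probes, 17 with array weights, 5 with the replicate block, 1 with slide row as a block, 6 in slide row 2 alone, 2 at 0.01 and 2 to 12 with 1 array left out.

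Signs turned for Ftl1 with quantile normalization (-0.24), for Hmox1 with the replicate block (-0.32), and, with slide row as a block and in slide row 2 alone, for Hamp (-0.82), Slc40a1 (1.50) and Tfrc (0.38). With 1 array left out Tfrc ranged from -0.56 to 0.022. Tfrc minus Slc40a1 was -1.12 in slide row 2 alone and -0.29 to 0.40 with 1 array left out. The causes were not tested. With the replicate block, Fth1 and Ftl1 lost their calls (adjusted p = 0.0652 and 0.152) and Hamp gained one, at 2.64 (adjusted p = 0.0366). Deviations of same-numbered samples correlated at -0.05, -0.03 and -0.00113, and those of differently numbered samples at -0.13 to 0.09. With so few arrays these values cannot show whether the numbers pair the samples, and the titles do not state it.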
